A study of Mus musculus with 16 samples.

Results

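The circadian clock genes described here are 10 of the 18662 genes tested in left ventricles of 16 mice. They are Arntl, Npas2, Clock, Per1, Per2, Per3, Dbp, Tef, Nr1d1 and Ciart, chosen by their log2 fold changes between groups in these same libraries: the list was drawn up after P635L hearts with the control virus had been seen to differ from WT hearts, and from P635L hearts with Tnpo3, in clock genes. All 10 passed the filter on low counts. The mice, of the Bl6J background and of both sexes, carried P635L, a mutation of the cardiac splicing factor RBM20, on both alleles or were wild type (WT). Every mouse had been given 1e12 viral genomes of the vector AAV9 at an age of 4 weeks, injected into the tail vein, so that no group was free of virus. The vector carried the cDNA of Tnpo3, an import receptor of the nucleus, or it carried pCAG-iCre-T2A-eGFP as control (Ctr), from which recombinase and a fluorescent protein are made. Hearts were harvested 12 weeks later, at 16 weeks of age, and polyadenylated RNA of the whole left ventricle was sequenced, 1 library per mouse. Genotype and virus give the groups WT Ctr and WT Tnpo3, and P635L Ctr and P635L Tnpo3, each of 4 mice. The labels give neither the hour of harvest nor the lighting schedule nor the sex of each mouse. Because a clock gene has no single level without an hour, each library is set out singly below.

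The mammalian clock is a feedback loop of transcription that runs in nearly every cell, heart muscle included. ARNTL (BMAL1) pairs with CLOCK or its relative NPAS2 and binds E-boxes, through which the pair switches on the Per and Cry genes, Nr1d1, Ciart, Dbp and Tef. PER and CRY proteins and CIART then hold the pair back, and NR1D1 (REV-ERB alpha) represses Arntl and Npas2 through ROR elements. DBP and TEF are transcription factors that pass the rhythm on to other genes through D-boxes. Activator genes and output genes therefore peak at different hours of the day in the heart, and a library taken at a single hour is a snapshot of the loop.

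The sequences of the start regions show which of the loop's elements the members carry. RefSeq windows on GRCm38.p6, from 250 bases before to 50 bases after an annotated start, were found for 9 of the 10 members, 14 windows in all, and Per2 had none. They were searched on both strands for the E-box CACGTG, the variant E-box CACGTT, the D-boxes TTATGTAA and TTACGTAA, the ROR element core TAGGTCA and the cAMP element TGACGTCA. The capitals below mark the letters found, each sequence is read 5′ to 3′ on the strand of its gene, and the members shown are those with a match.
Ciart, chr3:95882252-95882359, minus strand: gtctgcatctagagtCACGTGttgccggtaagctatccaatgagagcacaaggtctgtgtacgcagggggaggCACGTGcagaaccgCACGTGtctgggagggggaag
Per1, chr11:69098768-69098803, plus strand: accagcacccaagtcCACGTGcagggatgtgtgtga
Tef, first start, chr15:81802531-81802566, plus strand: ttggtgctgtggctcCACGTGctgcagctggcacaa
Tef, second start, chr15:81811261-81811296, plus strand: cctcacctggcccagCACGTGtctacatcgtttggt
Nr1d1, chr11:98775385-98775420, minus strand: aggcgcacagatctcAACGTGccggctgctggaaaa
Per3, chr4:151044801-151044885, minus strand: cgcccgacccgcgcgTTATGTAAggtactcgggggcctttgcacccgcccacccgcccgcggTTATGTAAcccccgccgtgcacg
Arntl, second start, chr7:113207531-113207557, plus strand: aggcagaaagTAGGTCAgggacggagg

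Ciart, the member with the widest range among the output genes, carried 3 copies of the E-box, with first bases 116, 58 and 44 bases before its start. Per1 had a single copy 166 bases before 1 of its 2 starts, and Tef had 1 copy at each of its 2 starts, 127 and 138 bases before them. Nr1d1 held the variant E-box, read on its strand as AACGTG, 28 bases before the start. Per3 held no E-box in this window but 2 D-boxes, 205 and 158 bases before its start. The ROR element core lay 31 bases into the transcript of the second Arntl start. The windows of Npas2, Clock and Dbp held none of these letters. Of all 32851 windows, 7.15% held the E-box, 4.68% the variant E-box, 1.06% a D-box, 2.61% the ROR element core and 1.79% the cAMP element.

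Library totals ran from 28493249 to 85922669 counts. Tnpo3 matched the virus label in every library: in WT hearts it lay between 41.6 and 49.4 CPM (counts scaled to library size) with the control virus and between 231 and 507 CPM with the Tnpo3 virus, and in P635L hearts between 41.9 and 47.8 CPM and between 234 and 723 CPM. The difference gave a two-sided exact permutation p of 0.0286 in each genotype, the smallest that 4 against 4 libraries allow. Rbm20 messenger RNA averaged 245 ± 78.5 CPM for WT Ctr, and for P635L Ctr the mean was 235 ± 23.0 CPM (SD, n = 4 each). Libraries that stand apart are WT Ctr replicates 2 and 4 and WT Tnpo3 replicate 4, in which over 10% of counts fell on the gene ENSMUSG00000119584. Separately, Xist exceeded the Y-linked counts in WT Ctr replicate 4 and WT Tnpo3 replicates 2 and 4. These libraries had 0 Y-linked counts, as female mice would. Every P635L library had at least 6296 Y-linked counts and at most 87 of Xist, as male mice would. Sex, read from these counts, was therefore uneven between the genotypes. The 5 ventricular muscle markers summed to between 38613 and 60067 CPM per library and the 3 atrial markers to no more than 9.61 CPM. For these sums, CPM is scaled to total counts alone. In tissue RNA of this kind, fewer cells of a type and less RNA per cell cannot be told apart.

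Arntl (ENSMUSG00000055116, chromosome 7, 112806672 to 112913333, plus strand, in the deposited coordinates, for which the submitters' processing notes name GRCm39) encodes the positive arm of the loop. Its level was 11.0, 13.6, 2.96 and 0.927 CPM in WT Ctr replicates 1 to 4, and 4.95, 10.7, 3.27 and 0.462 CPM in WT Tnpo3. In P635L Ctr it was 11.0, 6.42, 13.4 and 14.9 CPM, and in P635L Tnpo3 4.30, 3.75, 1.32 and 6.24 CPM. The WT groups thus held both high and low libraries, whereas P635L Ctr held only high ones and did not overlap P635L Tnpo3. The highest library, P635L Ctr replicate 4, exceeded the lowest, WT Tnpo3 replicate 4, 32.3-fold, the widest range of the 10 genes. As few as 14 and as many as 793 counts lay behind these values.

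Npas2 (ENSMUSG00000026077, chromosome 1, 39232812 to 39402317, plus strand), whose protein can take the place of CLOCK, was the member whose groups were set farthest apart relative to the spread between mice. It lay at 3.33, 2.81, 1.86 and 1.48 CPM in WT Ctr and at 1.67, 1.92, 1.79 and 1.09 CPM in WT Tnpo3. P635L Ctr had 5.53, 3.61, 5.41 and 5.86 CPM, and P635L Tnpo3 had 1.78, 1.89, 1.46 and 3.43 CPM. All 4 P635L Ctr libraries stood above all 12 others, and 72.2% of the variance of its log2 CPM lay between groups, against a median of 30.7% over all genes. Npas2 was chosen for differences between these groups, so that share restates the choice in part. Clock (ENSMUSG00000029238, chromosome 5, 76357715 to 76452639, minus strand), the other partner, moved least among the activators. It ran from 21.7 to 34.1 CPM in WT Ctr, from 23.6 to 34.6 CPM in WT Tnpo3, from 29.8 to 34.2 CPM in P635L Ctr and from 21.7 to 29.2 CPM in P635L Tnpo3. Its P635L Ctr and P635L Tnpo3 libraries did not overlap, but the range over all libraries was only 1.60-fold.

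Per1, Per2 and Per3 encode the period proteins that close the negative arm. Per2 (ENSMUSG00000055866, chromosome 1, 91343704 to 91387046, minus strand) ran opposite to Arntl: it was 11.8, 10.9, 43.5 and 74.4 CPM in WT Ctr and 26.4, 15.2, 32.0 and 70.8 CPM in WT Tnpo3. It was 13.8, 24.0, 13.5 and 10.3 CPM in P635L Ctr and 28.5, 41.4, 75.2 and 26.0 CPM in P635L Tnpo3, again without overlap between the P635L groups. The WT Ctr replicates with high Arntl, 1 and 2, had low Per2, and replicates 3 and 4 had the reverse. Per3 (ENSMUSG00000028957, chromosome 4, 151088109 to 151129122, minus strand) followed the same order, at 28.3, 28.2, 103 and 129 CPM in WT Ctr and 30.5, 43.1, 33.5 and 18.8 CPM in P635L Ctr. Its levels were 54.2, 33.9, 79.8 and 113 CPM in WT Tnpo3 and 70.9, 67.5, 118 and 47.1 CPM in P635L Tnpo3. Per1 (ENSMUSG00000020893, chromosome 11, 68986043 to 69000786, plus strand), which also answers to hormones and other acute signals, overlapped between all groups. It ran from 17.0 to 121 CPM in WT Ctr, from 34.7 to 104 CPM in WT Tnpo3, from 19.8 to 66.6 CPM in P635L Ctr and from 49.2 to 103 CPM in P635L Tnpo3.

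Ciart (ENSMUSG00000038550, chromosome 3, 95785815 to 95789563, minus strand), the repressor whose window held 3 E-boxes, was 7.31, 9.74, 25.8 and 30.3 CPM in WT Ctr and 24.0, 8.42, 18.5 and 29.7 CPM in WT Tnpo3. It was 4.91, 7.98, 5.13 and 3.24 CPM in P635L Ctr and stood at 15.8, 18.5, 36.2 and 11.1 CPM in P635L Tnpo3. Every P635L Tnpo3 library was above every P635L Ctr library. Of the WT Ctr libraries, replicate 1 lay within the range of P635L Ctr. Nr1d1 (ENSMUSG00000020889, chromosome 11, 98658758 to 98666159, minus strand) encodes the repressor of Arntl, and it was nearly level. It ran from 92.8 to 145 CPM in WT Ctr, from 105 to 185 CPM in WT Tnpo3, from 103 to 126 CPM in P635L Ctr and from 87.3 to 122 CPM in P635L Tnpo3. Opposite-strand exons of Thra cover 8.55% of its exonic bases, and since the sources used here do not say whether reads were counted by strand, reads of Thra may be counted in it.

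Dbp (ENSMUSG00000059824, chromosome 7, 45354512 to 45359627, plus strand), an output factor, was 61.8, 84.5, 179 and 201 CPM in WT Ctr and 156, 108, 162 and 179 CPM in WT Tnpo3. It was 60.5, 98.3, 61.4 and 51.4 CPM in P635L Ctr and 148, 138, 191 and 89.1 CPM in P635L Tnpo3. WT Ctr replicates 1 and 2 lay within the P635L Ctr range and replicates 3 and 4 far above it. Tef (ENSMUSG00000022389, chromosome 15, 81686622 to 81711064, plus strand), the related output factor, ran in parallel. It was 131, 131, 322 and 386 CPM in WT Ctr, 223, 149, 283 and 357 CPM in WT Tnpo3, 119, 162, 131 and 112 CPM in P635L Ctr, and 231, 243, 324 and 185 CPM in P635L Tnpo3. Exons of Sphk2 on the other strand cover 18.0% of the exonic bases of Dbp, and those of Gm17597 cover 2.45% of those of Tef, so their counts are uncertain in the same way.

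**Figure D1:**
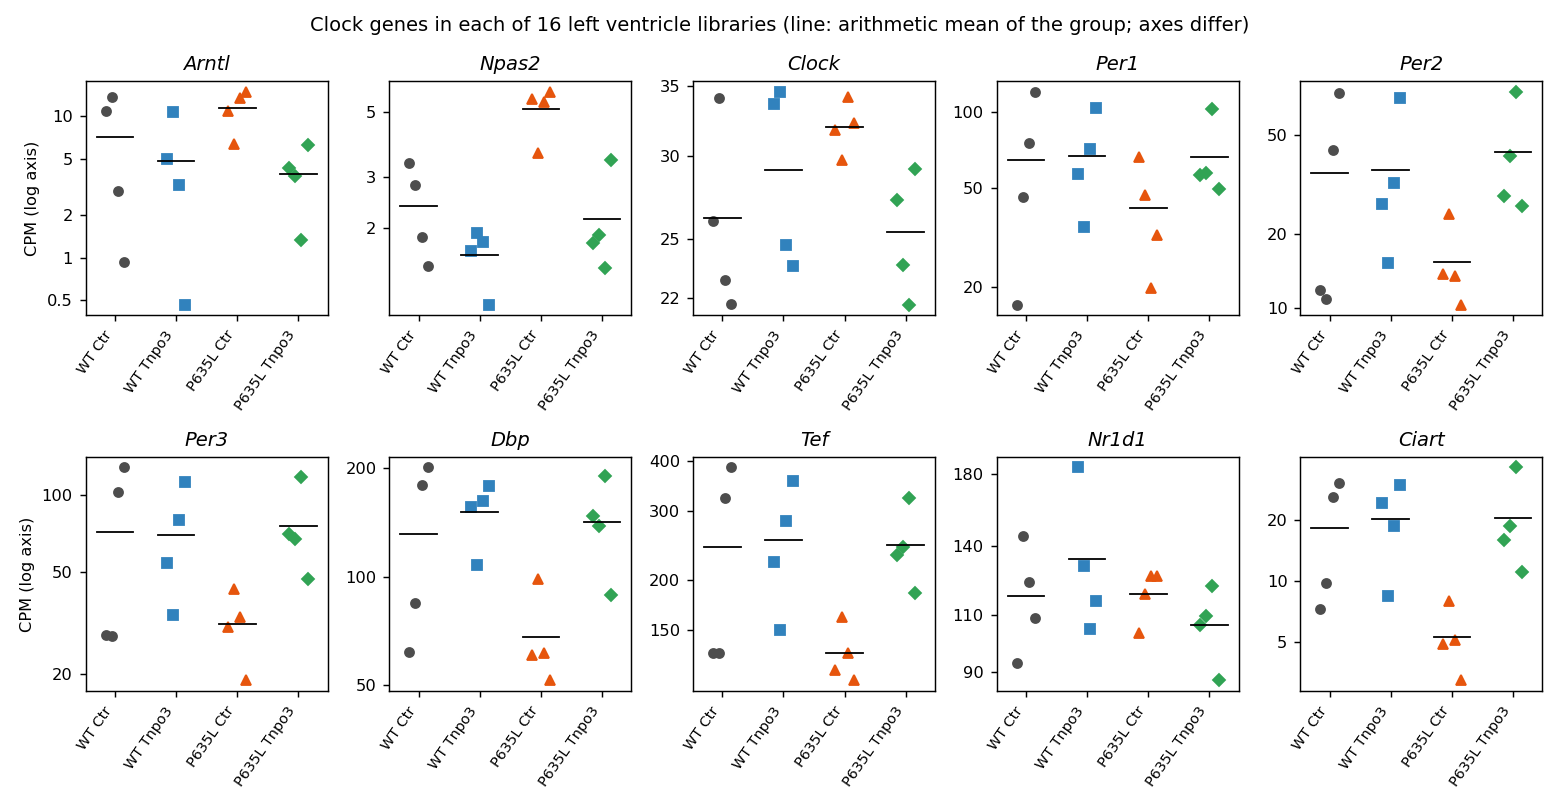
Level of each clock gene in CPM (log axis, which differs between panels) in each of 16 libraries, by group, with the arithmetic mean of the group as a line. Npas2 is highest in the 4 P635L Ctr libraries, from 3.61 to 5.86 CPM, Ciart lies between 3.24 and 7.98 CPM there, with WT Ctr replicate 1 within that range at 7.31 CPM, and Nr1d1 shows little difference between groups.

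Per length, in RPKM, read counts scaled by gene length and library size, averaged over 16 libraries (mean ± SD), the order of levels was Dbp at 41.1 ± 17.4, Nr1d1 at 38.7 ± 7.38, Tef at 27.7 ± 11.7, Per1 at 10.6 ± 5.29, Ciart at 7.10 ± 4.62, Per3 at 6.50 ± 3.77, Per2 at 5.53 ± 3.90, Clock at 2.05 ± 0.351, Arntl at 0.907 ± 0.649 and Npas2 at 0.586 ± 0.329. The ranges of mean ± SD overlapped for Dbp, Nr1d1 and Tef, and likewise for Per1, Ciart, Per3 and Per2. Those of Arntl and Npas2 overlapped too. The genes share the same libraries, so overlap of these ranges does not show equal levels, and differences within libraries were not tested. The 3 activators had the lowest means.

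The groups differed for the members as follows, given as fitted log2 fold changes ± SE without a test, because these are the contrasts that picked the genes out. In P635L Ctr against WT Ctr, all 3 activators were positive, with Npas2 at 1.11 ± 0.30, Arntl at 0.70 ± 0.81 and Clock at 0.29 ± 0.15. Of the 7 other members, 6 were negative, from -0.65 ± 0.53 for Per1 to -1.78 ± 0.53 for Ciart, and Nr1d1 stood at 0.01 ± 0.17. Per2, Per3, Dbp and Tef were at -1.19 ± 0.64, -1.19 ± 0.52, -0.96 ± 0.34 and -0.89 ± 0.34. The libraries of both groups failed to overlap for 1 member, Npas2, where 19.1% of all genes did not overlap. The median over the 10 members was -0.77, beside -0.05 over all genes, and it moved to -0.34 without WT Ctr replicate 4, to -1.03 without WT Ctr replicate 1 and to -0.31 without the 3 libraries with more Xist than Y-linked counts.

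In P635L Tnpo3 against P635L Ctr, which shares the P635L Ctr libraries with the contrast above, the activators were negative and the same 6 genes were positive. Arntl stood at -1.55 ± 0.82, Npas2 at -1.25 ± 0.29 and Clock at -0.33 ± 0.15. Ciart stood at 1.93 ± 0.53, Per2 at 1.47 ± 0.64, Per3 at 1.27 ± 0.52, Dbp at 1.06 ± 0.34, Tef at 0.91 ± 0.34 and Per1 at 0.68 ± 0.53, and Nr1d1 at -0.16 ± 0.17. Groups did not overlap for Arntl, Npas2, Clock, Per2, Per3, Tef and Ciart, which is 7 of 10 members where 20.4% of all genes did not overlap. The members were chosen for differences in this contrast, so that count restates the choice in part. Most of them also moved together between mice, so they do not count as separate results. The median over the members was 0.80, beside 0.01 over all genes. In P635L Tnpo3 against WT Ctr, the sum of both contrasts, the members' median was 0.03, beside -0.05 over all genes, from -0.85 ± 0.82 for Arntl to 0.28 ± 0.63 for Per2. That median changed sign with single libraries: leaving out P635L Tnpo3 replicate 3 gave -0.18, and leaving out WT Ctr replicate 1, 2 or 4 gave -0.16, -0.04 or 0.36. It was 0.39 when the 3 libraries with more Xist than Y-linked counts were omitted.

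**Figure D2:**
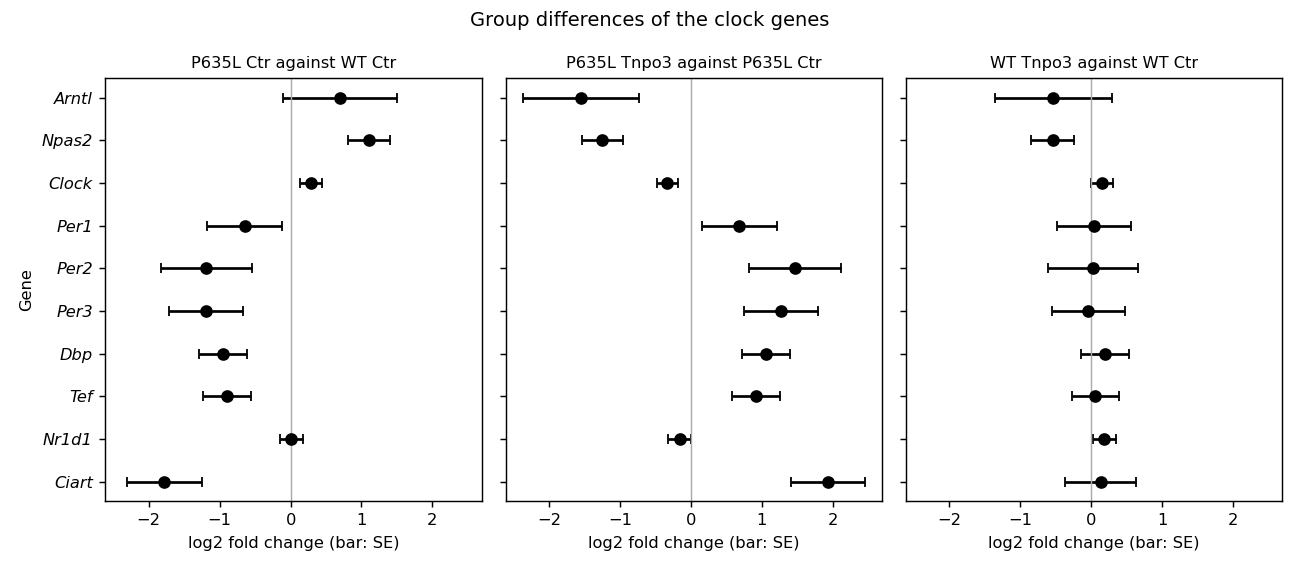
Fitted log2 fold change of each clock gene (horizontal axis, bars are SE, 4 libraries per group) in 3 contrasts; the left and middle panels share the P635L Ctr libraries and the left and right panels share the WT Ctr libraries. Ciart goes from -1.78 in the left panel to 1.93 in the middle one, and in the right panel every gene lies within 0.54 of 0.

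No member passed the test in the comparisons not used to choose them, which still share libraries with those that were. With 4 libraries per group, not passing does not show equal levels. In WT Tnpo3 against WT Ctr, which shares the WT Ctr libraries, 0 of 10 members were called by edgeR's quasi-likelihood test, and 0 had an unadjusted p under 0.05. Of all genes, 0.00536% were called, which is 1 gene of 18662, Tnpo3 itself. Arntl stood at -0.53 ± 0.82, Npas2 at -0.54 ± 0.30 and Dbp at 0.20 ± 0.34, and every edgeR adjusted p of a member was 1.00. The groups overlapped for all 10 members, as they did for all but 1.09% of genes. The authors' deposited table for the same groups lists 3 genes with an adjusted p under 0.05, none of them a member. In P635L Tnpo3 against WT Tnpo3, which shares the P635L Tnpo3 libraries with the contrasts above, 0 of 10 members were called and 0 had an unadjusted p under 0.05, where 3.72% of all genes were called. The smallest edgeR adjusted p was 0.270, for Nr1d1 at -0.33 ± 0.17. The SE of Arntl was 0.82 on the log2 scale in both contrasts, the largest of the 10.

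To place each library along the loop, a clock position was computed as the mean log2 CPM of Arntl, Npas2 and Clock minus the mean of the 7 other members, each gene centred on its mean over 16 libraries. A positive position means high activators and low outputs. The 4 P635L Ctr libraries lay at 1.50, 0.61, 1.78 and 2.08. WT Ctr libraries lay at 1.41, 1.16, -1.12 and -2.12, WT Tnpo3 libraries at -0.41, 0.79, -0.78 and -2.43, and P635L Tnpo3 libraries at -0.41, -0.63, -1.92 and 0.50. P635L Ctr thus held the 3 highest positions and had 4 of 4 libraries above 0, against 2 of 4 in WT Ctr and 1 of 4 in each Tnpo3 group. The members were chosen for differences of P635L Ctr from other groups, so its high positions restate that choice in part. The position of P635L Ctr replicate 2 lay below those of WT Ctr replicates 1 and 2 and WT Tnpo3 replicate 2. The means ± SD over 4 libraries were 1.49 ± 0.64 in P635L Ctr, -0.17 ± 1.73 in WT Ctr, -0.71 ± 1.33 in WT Tnpo3 and -0.62 ± 1.00 in P635L Tnpo3. The libraries rich in ENSMUSG00000119584 stood at 1.16, -2.12 and -2.43, and those with more Xist than Y-linked counts at -2.12, 0.79 and -2.43.

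**Figure D3:**
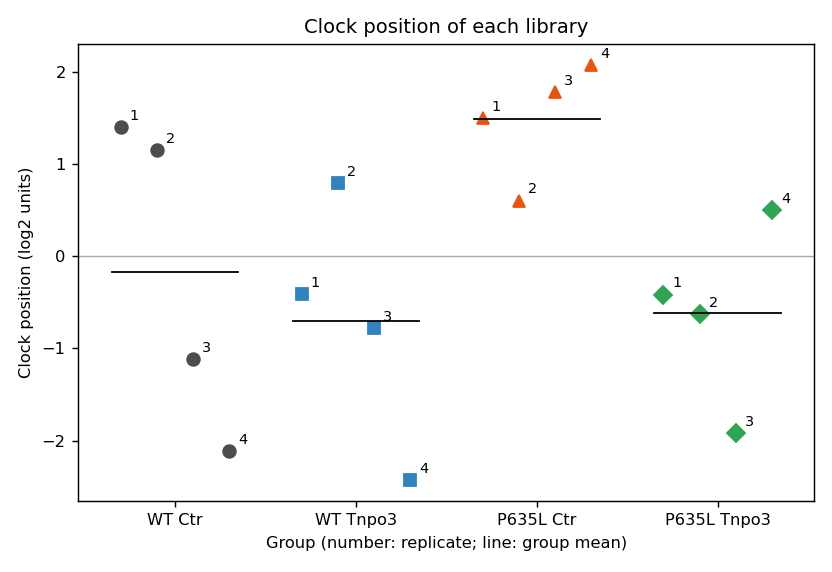
Clock position (log2 units, vertical axis) of each library, by group; numbers are replicate numbers and lines are group means. The P635L Ctr libraries lie between 0.61 and 2.08, while the WT Ctr libraries fall into a pair above 1 and a pair below -1. The position is built from members chosen for differences of P635L Ctr from other groups.

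The hours of harvest are not in the labels, so in each of these differences the hour cannot be told apart from the genotype or the virus compared. Sex was uneven as well: the 3 libraries with more Xist than Y-linked counts were all WT. Fibroblast markers moved with the same contrasts: Col1a1, Dcn and Pdgfra, 3 of 3, were called higher in P635L Ctr than in WT Ctr by edgeR and 3 of 3 lower in P635L Tnpo3 than in P635L Ctr. Their summed level was 458 to 795 CPM in WT Ctr, 524 to 730 CPM in WT Tnpo3, 1000 to 1493 CPM in P635L Ctr and 682 to 959 CPM in P635L Tnpo3, and no marker was at 0. Of the other marker lists, 2 of 5 ventricular markers and 1 of 3 macrophage markers were called lower in P635L Ctr than in WT Ctr, and 0 were called in P635L Tnpo3 against P635L Ctr. With group means removed, the correlation of a list's summed level with the clock position over 16 libraries, a description, was 0.61 for the 2 brown fat markers, 0.52 for the 3 atrial, 0.44 for the fibroblast, 0.39 for the macrophage and 0.06 for the ventricular markers. It was 0.09 for the endothelial, -0.05 for the lymphocyte, -0.30 for the white fat and -0.33 for the red cell markers. Only 1 of the 2 brown fat and 1 of the 3 atrial markers passed the filter on low counts. Brown fat markers summed to between 33.1 and 48.4 CPM in WT Ctr, 34.4 and 53.1 CPM in WT Tnpo3, 49.4 and 60.3 CPM in P635L Ctr and 54.9 and 65.4 CPM in P635L Tnpo3, with 1 of the 2 at 0 in all WT Tnpo3 libraries. The part of these cell types in the members' differences was not tested.

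Mice of a single group differed in most clock genes far more than they did in other genes of like level. The SD of log2 CPM within groups was 1.40 for Arntl, 0.93 for Per2, 0.82 for Per1, 0.79 for Per3, 0.78 for Ciart, 0.54 for Dbp and 0.54 for Tef, where the median gene had 0.29. Among the 1000 genes nearest in mean level, between 99.0% and 99.9% had a smaller SD than each of these 7. Of all genes tested, between 74.6% (for Tef) and 98.8% (for Arntl) did. The exceptions were Npas2 at 0.44, Clock at 0.23 and Nr1d1 at 0.25, with 65.3%, 70.2% and 77.8% of the nearest genes below them. The spread was widest in WT Ctr for Per1, Per2, Per3, Dbp, Tef and Ciart. For Per2 the SD was 1.38 in WT Ctr, 0.92 in WT Tnpo3, 0.51 in P635L Ctr and 0.70 in P635L Tnpo3, and the median SDs over all genes were 0.32, 0.33, 0.19 and 0.19. A difference in spread between groups was not tested.

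**Figure D4:**
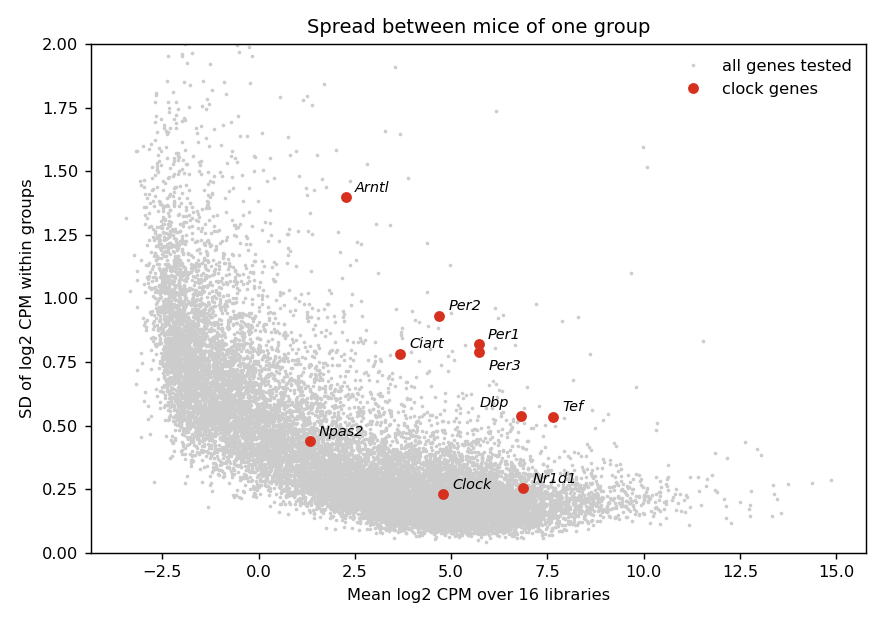
SD of log2 CPM within groups (vertical axis) against mean log2 CPM over 16 libraries (horizontal axis); grey points are all genes tested, of which 30 lie above the axis limit of 2, and red points are the 10 clock genes. Arntl at 1.40 and Per2 at 0.93 lie above nearly all genes of like level, whereas Npas2, Clock and Nr1d1 lie among them.

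The deviations of single mice from their group ran together across the loop. With each gene's group means removed, Arntl was correlated with Npas2 (Pearson's r = 0.85, Spearman's rho = 0.87) and Clock (r = 0.85, rho = 0.92) over 16 libraries. It was inversely correlated with Per2 (r = -0.96, rho = -0.96), Tef (r = -0.92, rho = -0.91), Per3 (r = -0.91, rho = -0.94), Ciart (r = -0.87, rho = -0.88), Dbp (r = -0.80, rho = -0.85) and Per1 (r = -0.79, rho = -0.85). All 8 of these passed among the 9 relations computed, by a two-sided permutation test within groups with 100000 resamples. Benjamini-Hochberg adjusted p-values for r ran from 9e-05 (raw p = 2e-05, Per2 and Per3) to 0.00222 (raw p = 0.00197, Per1; raw p = 0.00188, Dbp), and for rho from 0.00018 to 0.000855. Per2 lay on the other side of its group mean from Arntl in all but 2 of 16 libraries. Nr1d1 was the exception, with r = 0.14 (permutation p = 0.711) and rho = 0.09 (permutation p = 0.783).

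The relation was recomputed without the libraries that stand apart. Without WT Ctr replicate 4 and WT Tnpo3 replicate 4, the libraries farthest from the median in Arntl, r was -0.97 for Per2, -0.95 for Tef, -0.95 for Per3, -0.93 for Ciart, -0.90 for Dbp, -0.71 for Per1, 0.79 for Npas2 and 0.83 for Clock over 14 libraries, and all 8 passed. The same 8 passed without the 3 libraries rich in ENSMUSG00000119584. Without the 3 with more Xist than Y-linked counts 7 passed, and Per1 did not (r = -0.67, permutation test, adjusted p = 0.0647, 13 libraries). These libraries share a design and a tissue, and the correlation describes how mice within a group differ, whatever sets their order.

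**Figure D5:**
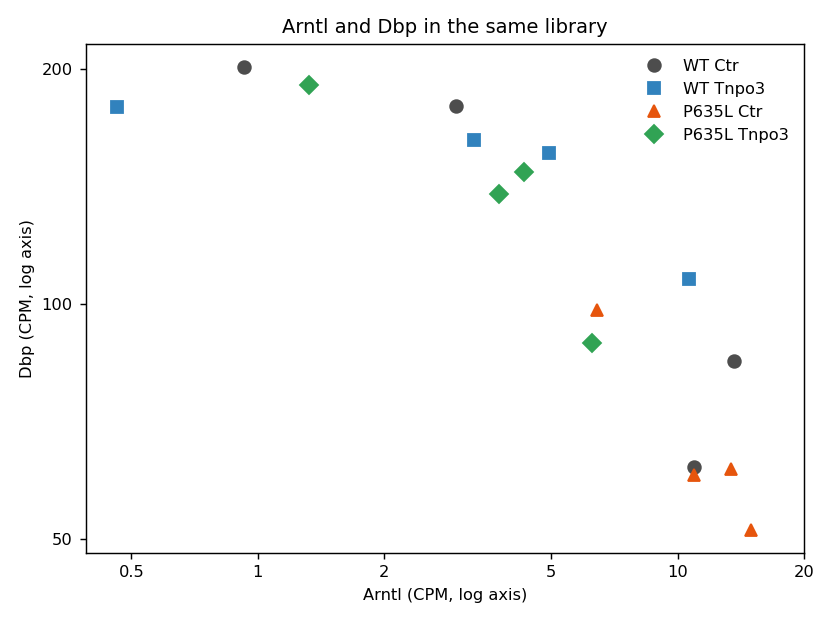
Level of Dbp (vertical axis, CPM, log axis) against level of Arntl (horizontal axis, CPM, log axis) in each of 16 libraries, by group. Libraries with Arntl under 5 CPM have Dbp between 138 and 201 CPM, and the 4 P635L Ctr libraries lie at the lower right with 2 of the WT Ctr libraries near them.

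Other genes of the clock, 18 in number, were tested over all genes. In P635L Ctr against WT Ctr, 4 of 18 fell and 0 rose, where 14.2% of all genes were called, and the median of the 18 was -0.06 beside -0.05 over all genes. Usp2, a deubiquitinase of clock proteins and a clock target, was 113, 145, 164 and 202 CPM in WT Ctr and 62.8, 87.3, 77.4 and 66.7 CPM in P635L Ctr, without overlap, a log2 fold change of -1.08 ± 0.20 (edgeR adjusted p = 0.00101). Cry2, a repressor that pairs with PER, fell by 0.73 ± 0.20 on the log2 scale (edgeR adjusted p = 0.0199), from a mean of 38.2 ± 11.4 to 23.0 ± 2.11 CPM (SD, n = 4). Its relative Cry1 fell by 0.64 ± 0.18 (edgeR adjusted p = 0.0217), from 10.4 ± 1.29 to 6.69 ± 0.52 CPM (SD, n = 4). The calls of Cry1 and Cry2 were each lost in 8 of 25 alternatives. For Cry1 these included leaving out WT Ctr replicate 2 or 4 or P635L Ctr replicate 1, 2 or 3, and for Cry2 WT Ctr replicate 3 or 4 or P635L Ctr replicate 1 or 2. Both calls were also lost without the 3 libraries rich in ENSMUSG00000119584 and without the 3 with more Xist than Y-linked counts. They were lost too with the clock position, built from members chosen in this contrast, as a covariate, at -0.48 for Cry1 and -0.29 for Cry2. Usp2 kept its call in all 25.

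With the Tnpo3 virus in P635L hearts, 1 of 18 rose and 0 fell, where 3.88% of all genes were called. That gene was Usp2, at 138, 143, 192 and 97.9 CPM in P635L Tnpo3, a log2 fold change of 0.96 ± 0.20 against P635L Ctr (edgeR adjusted p = 0.0104). The call was lost in 1 of 25 alternatives, with the clock position as a covariate, where the log2 fold change was 0.51; that position is built from members chosen in this contrast. Cry2 stood at 0.45 ± 0.20 (edgeR adjusted p = 0.230) and Cry1 at 0.00 ± 0.18 (edgeR adjusted p = 0.995). Cry1 averaged 6.69 ± 0.52 CPM in P635L Ctr and 6.67 ± 1.61 CPM in P635L Tnpo3, beside 10.4 ± 1.29 CPM in WT Ctr and 9.83 ± 2.09 CPM in WT Tnpo3 (SD, n = 4). Its differences from WT did not pass in P635L Tnpo3, at -0.64 ± 0.18 against WT Ctr (edgeR adjusted p = 0.0592) and -0.56 ± 0.18 against WT Tnpo3 (edgeR adjusted p = 0.0871). In P635L Tnpo3 against WT Ctr, 1 of 18 fell, where 3.07% of all genes were called. This was Btrc, a subunit of the ligase that marks PER proteins for destruction, at -0.42 ± 0.10 (edgeR adjusted p = 0.0317), a call lost in 15 of 25 alternatives. In the other 2 contrasts 0 of 18 were called, with 0 and 2 at an unadjusted p under 0.05.

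Several clock genes that did not pass between groups had wide spread between mice. Hlf, another factor of the Dbp and Tef family, was 10.5, 14.3, 25.3 and 41.6 CPM in WT Ctr and 5.92, 13.9, 9.28 and 9.95 CPM in P635L Ctr, a log2 fold change of -1.23 ± 0.46 (edgeR adjusted p = 0.0904). Nfil3, a repressor at D-boxes, was 16.6, 15.3, 7.29 and 5.91 CPM in WT Ctr and 14.2, 12.5, 16.6 and 17.7 CPM in P635L Ctr, at 0.44 ± 0.31 (edgeR adjusted p = 0.384). In WT Ctr it was high in replicates 1 and 2 and low in 3 and 4, as Arntl was. Nr1d2, the relative of Nr1d1, was 68.6, 72.6, 156 and 147 CPM in WT Ctr and 103, 121, 104 and 90.2 CPM in P635L Ctr, at -0.09 ± 0.23 (edgeR adjusted p = 0.843). Bhlhe40 and Bhlhe41, repressors that compete at E-boxes, stood at 0.39 ± 0.18 (edgeR adjusted p = 0.158) and 0.06 ± 0.20 (edgeR adjusted p = 0.877) in that contrast.

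Regression of each other gene on the clock position within groups, added after the spread had been seen, gave slopes in log2 units per unit of position. Slopes that passed numbered 9 of 18 for the other clock genes, 8 falling and 1 rising, where 7.29% of all genes passed. Hlf had a slope of -0.51 ± 0.06 (edgeR adjusted p = 0.00119), Nr1d2 -0.27 ± 0.04 (edgeR adjusted p = 0.00242), Cry2 -0.24 ± 0.03 (edgeR adjusted p = 0.00276) and Nfil3 0.36 ± 0.05 (edgeR adjusted p = 0.00347), each over 16 libraries. Usp2, Cipc, Rora, Bhlhe41 and Csnk1e also passed, with slopes of -0.20, -0.16, -0.17, -0.18 and -0.10. Cry1, at -0.09 ± 0.05 (edgeR adjusted p = 0.278), did not. Over all 16 omissions of a single library the slope of Hlf stayed between -0.53 and -0.47 and that of Cry2 between -0.25 and -0.23. The slope of Rora went from -0.17 to -0.07 without the 3 libraries rich in ENSMUSG00000119584 and to -0.02 without the 3 with more Xist than Y-linked counts, and that of Csnk1e from -0.10 to -0.09 and -0.07. As for calls, 3 of 18 passed without WT Ctr replicate 4, 1 without the rich libraries and 0 without those with more Xist, where the slope of Hlf was -0.50 (edgeR adjusted p = 0.252).

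Genes known to follow the clock in the heart, 8 in number, were taken as a separate list. In P635L Ctr against WT Ctr, 3 of 8 fell and 0 rose, where 14.2% of all genes were called, and the median was -0.42 beside -0.05 over all genes. Dgat2, which makes triglycerides, was 451, 543, 559 and 501 CPM in WT Ctr and 166, 168, 221 and 210 CPM in P635L Ctr, a log2 fold change of -1.43 ± 0.15 (edgeR adjusted p = 2.8e-06). Nampt, an enzyme of NAD synthesis, fell by 0.72 ± 0.17 (edgeR adjusted p = 0.00800) and Por, an electron donor to cytochromes P450, fell by 0.56 ± 0.12 (edgeR adjusted p = 0.00360). With Tnpo3 in P635L hearts, 2 of 8 rose, where 3.88% of all genes were called: Dgat2 by 0.94 ± 0.14 (edgeR adjusted p = 0.00107), to 336, 377, 439 and 318 CPM, and Por by 0.48 ± 0.12 (edgeR adjusted p = 0.0288), a call lost in 7 of 25 alternatives, among them leaving out P635L Tnpo3 replicate 1 or 3 or any single P635L Ctr library. On the clock position within groups, these 3 genes had slopes that did not pass, of -0.01 ± 0.05, 0.01 ± 0.06 and -0.01 ± 0.04 for Dgat2, Nampt and Por (edgeR adjusted p = 0.918, 0.898 and 0.936). In that list Wee1, a brake on cell division, and Bdh1, an enzyme of ketone use, had slopes that passed, -0.33 ± 0.05 (edgeR adjusted p = 0.00276) and 0.37 ± 0.07 (edgeR adjusted p = 0.0141), which is 2 of 8 where 7.29% of all genes passed. Without the libraries rich in ENSMUSG00000119584 neither passed (edgeR adjusted p = 0.106 for Wee1 and 0.515 for Bdh1). The same held without those with more Xist than Y-linked counts (edgeR adjusted p = 0.252 and 0.667).

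Of 12 genes moved by glucocorticoid or temperature, signals that can set the clock of the heart, 1 rose and 0 fell in P635L Ctr against WT Ctr, a share below the 14.2% of all genes called. That gene was Hspa1a, a heat shock chaperone, at 0.868, 1.94, 0.904 and 0.840 CPM in WT Ctr and 2.72, 4.00, 2.17 and 4.86 CPM in P635L Ctr, a log2 fold change of 1.61 ± 0.35 (edgeR adjusted p = 0.00444). It fell by 1.40 ± 0.34 (edgeR adjusted p = 0.0276) with Tnpo3 in P635L hearts, to 0.952, 1.30, 1.79 and 1.16 CPM, a call lost in 5 of 25 alternatives, each of which left out a single library: P635L Ctr replicate 2 or 4 or P635L Tnpo3 replicate 1, 2 or 4. Opposite-strand exons of Gm20481 cover 19.0% of its exonic bases, so its counts are uncertain. No other gene of the 12, further heat shock genes included, was called in either contrast. On the clock position, 1 of the 12 had a slope that passed, Cdkn1a at 0.49 ± 0.08 (edgeR adjusted p = 0.0106), near the 7.29% of all genes.

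Of all genes other than the members, those whose log2 CPM over 16 libraries was most like that of Dbp, by Pearson's r and among genes that averaged 1 log2 CPM or more, were Hlf (r = 0.91), Fam126a (0.90), Usp2 (0.90), Gpcpd1 (0.88) and Cry2 (0.87). Of these, Hlf, Usp2 and Cry2 belong to the clock list. The genes most like Arntl were Tmem242 (r = 0.94), Klhdc8a (0.93), Psmd14 (0.91), Utp18 (0.91) and Mtln (0.91). With group means removed, r stayed between 0.87 and 0.89 for the genes like Dbp and between 0.89 and 0.92 for those like Arntl. Among the members, Ciart (r = 0.96) and Tef (r = 0.95) were the most like Dbp. These are descriptions over libraries that share groups and differ in depth.

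Since RBM20 is a splicing factor, the members' splicing events in the deposited rMATS tables were read as well. An event was counted where its false discovery rate was under 0.05, its inclusion moved by 0.1 or more, and the groups compared averaged 10 or more junction reads a library. Of 16 covered events of the members in WT Ctr against P635L Ctr, 1 met these limits, where 2.52% of all covered events did. It is a skipped exon of Per2 of 797 bases, chr1:91351412-91352208 in the deposited coordinates, in a contrast that the choice of the members used. The exon was included at 1.00, 1.00, 0.710 and 0.778 in the 4 WT Ctr libraries, in the order listed, and at 1.00, 0.937, 1.00 and 1.00 in P635L Ctr, with means of 41.0 and 49.0 junction reads. In WT Tnpo3 its mean inclusion was 0.710 and in P635L Tnpo3 0.865. The difference of WT Ctr minus WT Tnpo3, 0.162, was larger in size than the counted -0.112 of WT Ctr minus P635L Ctr. It did not pass the limit on the false discovery rate. The other 2 tables held 0 member events past the limits, of 17 covered for WT Ctr against P635L Tnpo3, where 2.12% of all covered events were counted, and of 18 for WT Ctr against WT Tnpo3, where 0.941% were. No event of the other 9 members met the limits.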

How the data were processed

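Raw counts per gene in 16 libraries were made by the authors and deposited; the submitters' processing notes list STAR 2.7.9a, featureCounts 2.0.6, DESeq2 and GRCm39, with no roles. Whether counting used strand is not given in the sources used here. The authors' deposited DESeq2 tables give log2 fold changes and adjusted p-values, and the deposited rMATS tables give inclusion differences, read as a score, with FDR p-values, per the file headers. All 16 libraries were fitted in edgeR 4.0.16 (R 4.3.3; quasi-likelihood, robust, TMM, filterByExpr, 12 residual degrees of freedom), with Benjamini-Hochberg adjustment over 18662 genes and calls at 0.05. Log2 CPM used a prior count of 2. The scripts were tested on simulated data. The members, lists and alternatives were chosen with earlier results of these data known. Named genes are the members, 8 fixed clock genes, any listed gene called in a contrast, the 5 most like Dbp and the 5 most like Arntl, Tnpo3 and Rbm20; 1 gene that is counted in a list is not reported here. Totals of 28493249 to 85922669 counts leave counting error small beside the spread between mice, except for Arntl and Npas2 at their lowest. Alternatives covered scaling, filtering, DESeq2 1.42.0, other sample sets, a replicate block and the clock position as a covariate. Same-numbered libraries are different mice: 6 of 24 same-number pairs correlated above 0.1, so the numbers were not taken to pair them.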

Additional observations from a re-analysis of the deposited data

Results flagged for a closer look

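Per1 in P635L Tnpo3 had a library far from the others: replicate 3 stood at 103 CPM, while the other 3 lay between 49.2 and 57.1 CPM. Among 44 groups checked in this way, 1 was found, and chance gives about 1 in 20. That library also had the lowest clock position of its group, -1.92.

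The effect of the Tnpo3 virus on Dgat2, the triglyceride enzyme, differed between genotypes. It was 1.03 larger on the log2 scale in P635L than in WT hearts, by the interaction term of the edgeR model (adjusted p = 0.0232 over all genes), and the WT groups averaged 513 ± 48.4 and 482 ± 82.3 CPM (SD, n = 4).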

How the results depend on the processing

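Each result was recomputed under other scalings, without the filter on low counts, with DESeq2, with only the groups compared, without each library and without the sets of libraries that stand apart; the cause of each change was not tested. The members' median log2 fold change kept its sign in every alternative for P635L Ctr against WT Ctr (leaving out 1 library, from -1.03 to -0.34) and for P635L Tnpo3 against P635L Ctr (from 0.57 to 0.95). The members were chosen for their differences in these contrasts, so a kept sign restates that choice in part. For WT Tnpo3 against WT Ctr the median lay between -0.19 and 0.39. In the 2 contrasts in which members were tested, 0 were called in every alternative run.

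Of the counts over all genes, P635L Ctr against WT Ctr stayed within 1.5 times its main value. P635L Tnpo3 against P635L Ctr (main 724) became 2846 with only the groups compared, 1370 with DESeq2, 1482 without the libraries rich in ENSMUSG00000119584, 1282 without those with high Xist, and 282 (without P635L Tnpo3 replicate 3) to 1022 (without WT Tnpo3 replicate 4) without 1 library. P635L Tnpo3 against WT Tnpo3 (694) became 462, 1426, 1887 and 386 in the same order, 1143 with the clock position as a covariate (added after seeing the data), and 280 to 1220. P635L Tnpo3 against WT Ctr (573) became 1113 with DESeq2, 319 without the rich libraries and 282 to 736 without 1 library. WT Tnpo3 against WT Ctr (1) became 3 with DESeq2, 0 without the rich libraries, 0 without those with high Xist and 1 to 3 without 1 library.

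The other clock genes called in P635L Ctr against WT Ctr (4) became 2 without the filter, 2 without the rich libraries, 2 without those with high Xist and 1 to 4 without 1 library. In P635L Tnpo3 against P635L Ctr (1) they became 5 with only the groups compared, 2 without the rich libraries and 2 with DESeq2. Genes whose slope on the clock position passed (1359) became 3 without the rich libraries, 0 without those with high Xist and 16 (without WT Ctr replicate 4) to 2040 without 1 library; of the 18 other clock genes, 9 became 1, 0 and 3 to 9. The within-group r of Arntl with Nr1d1 turned from 0.14 to -0.13 without the 2 libraries farthest in Arntl; neither passed. The Per2 event was lost (0 events) at an inclusion difference of 0.2.

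Of 48 library and group pairs, 11 correlated best with their own number. Between WT Ctr and WT Tnpo3, same-numbered libraries correlated at 0.10, 0.11, 0.28 and 0.55 for replicates 1 to 4. Replicate 4 of both these groups was rich in ENSMUSG00000119584 and had more Xist than Y-linked counts. Whether same-numbered WT libraries shared a batch or a harvest was not tested. With the replicate block, 547, 677 and 490 genes were called for P635L Tnpo3 against WT Tnpo3, P635L Ctr and WT Ctr, and 2487 for P635L Ctr against WT Ctr.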
